A study of Bos taurus with 8 samples.

Results

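The collagen genes of cultured bovine granulosa cells were compared between normal oxygen (NOL, 21% oxygen) and low oxygen (LOL, 1% oxygen). Members were the transcript clusters whose gene symbol on the array annotation reads COL, a number, A and a number. A transcript cluster is a set of array probes summarised to 1 value. The annotation gives most clusters 1 gene symbol, and others several or none. The rule took 43 clusters of 42 genes, out of 24415 clusters and 18010 gene symbols, and used no measured value. *COL5A1*, which encodes the α1 chain of type V collagen, had 2 clusters and every other gene had 1. *COL9A1*, *COL9A2* and *COL6A4* were not analysed here. Granulosa cells came from small to medium follicles of abattoir ovaries, were frozen, thawed and plated in collagen-coated wells, and grew serum-free with FSH, IGF-1 and androstenedione. Both groups were kept at 21% oxygen until day 6. NOL samples stayed there and LOL samples were moved to 1% oxygen, and both were harvested on day 8. There were 4 samples in each group, named NOL 1 to 4 and LOL 1 to 4, with 1 array per sample. Age and breed of the animals were not given in the sources used here. Whether the 4 samples of a group were cultured separately is stated neither in the methods nor in the labels. The spread behind each p-value is the one among these arrays and may be technical.

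Collagens are secreted proteins built from 3 chains that wind into a triple helix. Each chain is a gene of its own, and a collagen type is a set of chains that assemble together. Fibrillar collagens form the rope-like fibrils of connective tissue. Type IV collagen forms the sheet of basement membranes, such as the follicular basement membrane that separates granulosa cells from the theca. FACITs are collagens that decorate the surface of fibrils, type VI collagen forms beaded filaments next to cells, and other collagens span the cell membrane, anchor epithelia or build hexagonal lattices. Ovarian stroma and theca are the main makers of fibrillar collagen in the follicle wall, while granulosa cells contribute to its basement membrane.

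The 8 arrays had medians of 4.06 to 4.18 and upper quartiles of 5.97 to 6.13 on the log2 scale. LOL 3 stood apart from the other LOL arrays, with the highest median. It was the single highest LOL array in 46.5% of the collagen clusters and in 30.6% of all clusters. The deposited values hold no measure of background. A group mean under 4 was therefore treated as not told apart from background, a fold was given only where both groups were at or over 4, and otherwise only the log2 difference stands. Of the 43 collagen clusters, 23 had both means at or over 4, 4 had 1 mean under 4 and 16 had both under 4. All 13 granulosa cell markers measured had both means at or over 4, with *FSHR* at 8.64 at NOL and 6.92 at LOL, whereas 9 of 11 leukocyte markers and 7 of 10 endothelial markers had both means under 4.

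At LOL, 16 of the 43 collagen clusters rose, 2 fell and 25 did not pass limma's adjusted p. Over all 24415 clusters, 20.5% rose and 20.5% fell, and the collagen shares were 37.2% and 4.65%. With both directions counted, 41.9% of collagen clusters and 41.0% of all clusters passed. Under median centring the counts over all clusters were 3585 higher and 5693 lower, in place of 5017 and 4999, and those of collagen were 12 and 2. The median log2 difference was 0.20 for collagen clusters and 0.06 for all clusters. Among clusters with both means at or over 4, the medians were 0.20 for 23 collagen clusters and -0.033 for 11982 clusters overall. In that signal range 10 collagen clusters rose and 2 fell, or 43.5% and 8.70%, against 26.2% and 35.1% of all clusters. The arrays of the groups did not overlap in 19 collagen clusters, or 44.2%, a share near the 39.4% of all clusters (19.1% with LOL higher and 20.3% with LOL lower). The rises were small. 1 collagen cluster, of *COL5A1*, was more than 2-fold higher, where 2.22% of all clusters were, and none was more than 2-fold lower, where 2.65% of all clusters were (4.87% in either direction).

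**Figure D1:**
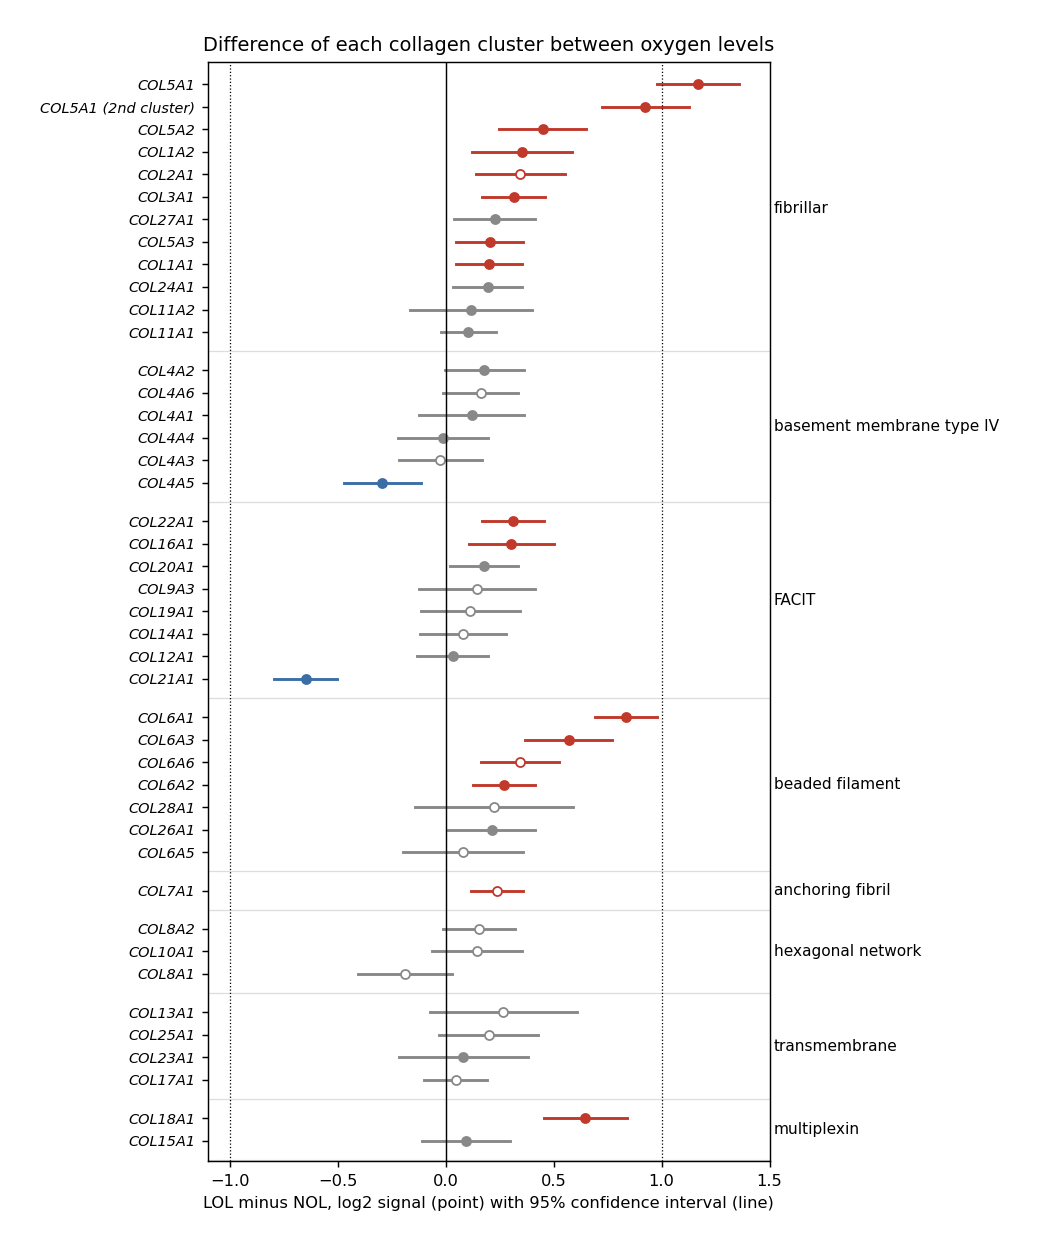
Difference between LOL and NOL of each of the 43 collagen clusters in log2 signal (point) with its 95% confidence interval from limma (line), grouped by collagen class. Red clusters rose and blue clusters fell at the adjusted p, grey ones did not pass, open points mark clusters with both group means under 4, and dotted lines mark a 2-fold change. The fibrillar and beaded filament classes lie to the right of 0, and *COL21A1* and *COL4A5* are the clusters that fell.

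The largest rise among the collagens was that of *COL5A1*, a fibrillar collagen. Of 12 fibrillar clusters, which include both clusters of *COL5A1*, 8 rose and none fell, where 20.5% of all clusters rose and 20.5% fell. Their median log2 difference was 0.27, near that of the beaded filament class (0.27). Type V collagen is a minor fibrillar collagen that starts fibrils and limits their width. Its α1 chain gene *COL5A1* had a log2 signal of 7.19, 7.19, 7.49 and 7.45 in NOL 1 to 4 and of 8.46, 8.47, 8.47 and 8.59 in LOL 1 to 4 (transcript cluster 12707220). The lowest LOL array lay far above the highest NOL array. *COL5A1* was 2.25-fold higher (log2 difference 1.17, standard error 0.085, limma adjusted p = 3.05e-06). Only 1.62% of all clusters had a larger positive difference. The second cluster of *COL5A1* (12703720) lay at 4.33, 4.16, 4.41 and 4.59 at NOL and at 5.39, 5.28, 5.27 and 5.25 at LOL. It too showed no overlap, with a log2 difference of 0.93, which is a fold of 1.90 (limma adjusted p = 2.13e-05). When the fold itself was tested against 2 with limma's treat, neither cluster passed.

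*COL5A2*, the α2 chain of type V, was 6.28, 6.39, 6.52 and 6.64 at NOL and 7.03, 6.83, 6.81 and 6.96 at LOL. It was 1.37-fold higher (log2 difference 0.45, standard error 0.090, limma adjusted p = 0.00259), with no overlap of the groups. *COL5A3*, the α3 chain, was dim, with 3.75, 3.87, 3.70 and 3.86 at NOL and 3.90, 4.09, 4.05 and 3.96 at LOL. Its log2 difference of 0.21 passed (limma adjusted p = 0.0380), but not without NOL 1 (0.19), NOL 3 (0.17), LOL 2 (0.18), LOL 3 (0.19) or LOL 4 (0.22), nor under median centring (0.14), quantile normalization (0.12) or cyclic loess normalization (0.11). All 3 chains of type V were thus on the higher side, and *COL5A1* by the widest margin.

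The bulk fibrillar collagens, types I and III, moved little. *COL3A1*, the only chain of type III, read 8.67, 8.78, 8.88 and 8.85 at NOL and 9.13, 9.07, 9.16 and 9.08 at LOL. This is a rise of 1.24-fold (log2 difference 0.32, standard error 0.065, limma adjusted p = 0.00308) with groups that did not overlap. *COL1A2*, the α2 chain of type I, read 7.70, 7.87, 7.96 and 8.12 at NOL and 8.47, 8.25, 8.21 and 8.13 at LOL. Its groups nearly touched, since NOL 4 at 8.12 lay just under LOL 4 at 8.13. The 1.28-fold rise (log2 difference 0.35, standard error 0.10, limma adjusted p = 0.0204) no longer passed without NOL 1 (0.28), NOL 2 (0.34) or LOL 1 (0.28), under median centring (0.29) or in an analysis of variance without moderation (adjusted p = 0.0559). *COL1A1*, the α1 chain, read 6.14, 6.15, 6.13 and 6.09 at NOL and 6.30, 6.30, 6.22 and 6.49 at LOL. It was 1.15-fold higher (log2 difference 0.20, standard error 0.069, limma adjusted p = 0.0406). It no longer passed under median centring (0.14), nor when any 1 array other than LOL 3 was left out, with log2 differences of 0.19 without NOL 4, 0.15 without LOL 4 and 0.20 to 0.21 without NOL 1, NOL 2, NOL 3, LOL 1 or LOL 2.

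The cartilage collagen *COL2A1* also rose, by 0.35 on the log2 scale (limma adjusted p = 0.0130), with group means of 3.53 and 3.88 that are both under 4. *COL27A1* and *COL24A1*, 2 fibrillar collagens first known from developing cartilage and bone, had log2 differences of 0.23 and 0.20 and missed the threshold (limma adjusted p = 0.0524 and 0.0527). *COL27A1* passed without LOL 2 (0.29), and *COL24A1* passed without LOL 3 (0.25). *COL11A1* and *COL11A2*, the chains of cartilage type XI, had log2 differences of 0.11 and 0.12, with 95% confidence intervals of -0.024 to 0.23 and -0.17 to 0.40.

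**Figure D2:**
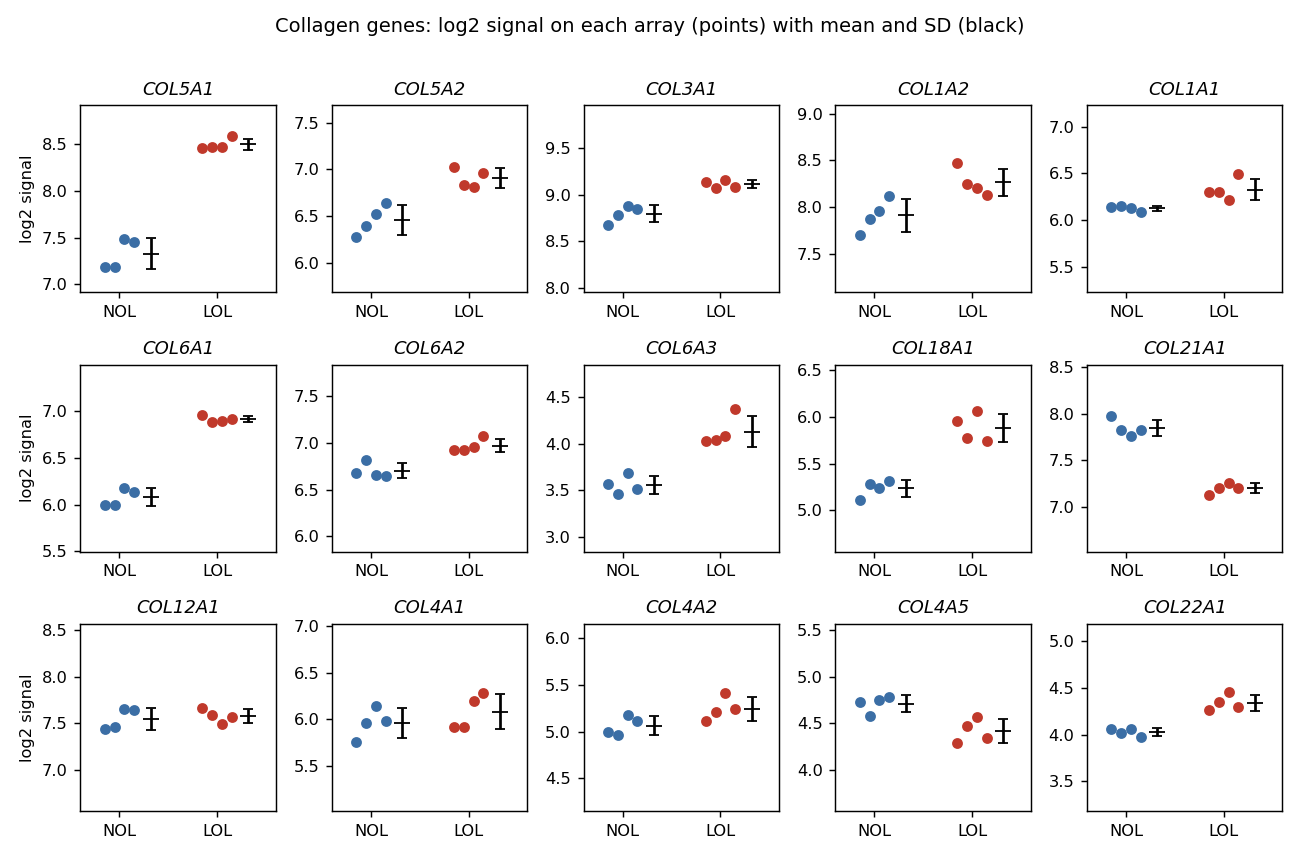
Log2 signal on each array (points, NOL blue and LOL red, arrays 1 to 4 from left to right) with the mean and SD of the group (black) for 15 collagen genes, each panel spanning 2 log2 units. *COL5A1* and *COL6A1* show the widest gaps upward, *COL21A1* shows the widest gap downward, and the groups of *COL12A1*, *COL4A1* and *COL4A2* overlap.

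Markers of smooth muscle and fibroblasts moved in the same direction as the fibrillar collagens. Of 14 measured, with no collagen among them and with *LUM* and *DCN* also in the proteoglycan list, 10 rose and none fell, and their mean log2 signal ranged from 5.09 to 5.37 over the NOL arrays and from 6.05 to 6.17 over the LOL arrays. Over all clusters 20.5% rose and 20.5% fell. Granulosa cell markers moved the other way, with 9 of 13 lower and 1 higher, and their mean log2 signal ranged from 7.99 to 8.14 at NOL and from 7.26 to 7.38 at LOL. The 1 that rose, *HSD17B1*, was 3.83-fold higher, with means of 4.68 and 6.62 (limma adjusted p = 2.84e-06). In the smooth muscle and fibroblast list the largest rises were those of *TAGLN* and *ACTG2*, by 3.15 and 1.89 on the log2 scale (limma adjusted p = 2.26e-07 and 1.93e-07). Of the 14 genes, 5 rose past the fold threshold of 2, where 2.22% of all clusters did, and 4 did not pass the adjusted p. The fibroblast marker *PDGFRA* was at 7.39 and 7.81 and rose, whereas *FAP* lay at 1.86 and 1.90 and *THY1* at 5.45 and 5.90 and did not pass. Among 7 genes listed as theca markers, *INSL3* rose and *LHCGR* fell, the latter to a mean of 3.69 at LOL, under 4. *LHCGR* is not particular to theca, and the study counts it among genes of FSH signaling in granulosa cells. The mean of the theca list ranged from 4.86 to 5.02 at NOL and from 4.90 to 5.06 at LOL. *CYP17A1*, the theca enzyme of androgen synthesis, was at 3.38 and 3.35. Of 10 endothelial markers 3 rose, 7 did not pass and none fell, and of 11 leukocyte markers 3 rose, 8 did not pass and none fell. The endothelial marker *CLDN5* was 3.82-fold higher, with means of 4.10 and 6.04 (limma adjusted p = 4.78e-06). In these bulk samples, fewer cells of a type and less RNA per cell cannot be told apart. The part of these markers in the collagen result was not tested.

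Type VI collagen, which forms beaded filaments around cells, rose in 4 of 5 measured chains, where 20.5% of all clusters rose and 20.5% fell. *COL6A1* read 6.00, 6.00, 6.18 and 6.14 at NOL and 6.96, 6.88, 6.90 and 6.92 at LOL (transcript cluster 12679824). The LOL arrays lay close together and well above the NOL arrays. *COL6A1* was 1.78-fold higher (log2 difference 0.84, standard error 0.064, limma adjusted p = 4.31e-06), which 3.06% of all clusters exceeded. *COL6A2*, its usual partner chain, read 6.68, 6.82, 6.66 and 6.65 at NOL and 6.93, 6.93, 6.96 and 7.07 at LOL. Its rise was 1.21-fold (log2 difference 0.27, standard error 0.065, limma adjusted p = 0.00758). *COL6A3*, the largest of the 3 classical chains, read 3.57, 3.46, 3.69 and 3.52 at NOL and 4.03, 4.04, 4.08 and 4.37 at LOL. Its log2 difference was 0.57 (standard error 0.090, limma adjusted p = 5.79e-04), with the NOL arrays under 4.

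*COL6A6* and *COL6A5* encode chains that can take the place of the α3 chain. *COL6A6* rose by 0.34 on the log2 scale (limma adjusted p = 0.00671) from a mean of 2.58 to 2.93, and *COL6A5* was at 2.74 and 2.82 and did not pass. The other members of the class, *COL26A1* and *COL28A1*, had log2 differences of 0.21 and 0.22 but missed the threshold (limma adjusted p = 0.0843 and 0.310). *COL26A1* passed without LOL 4 (0.27). In *COL28A1* the LOL arrays spread from 2.96 to 3.81, with LOL 3 highest. The array annotation and RefSeq give *COL28A1* different gene identifiers, so which gene this cluster reports is uncertain.

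No chain of type IV, the sheet-forming collagen of basement membranes, was higher at the adjusted p. Of the 6 chains of type IV, *COL4A5* was lower and 5 did not pass, where 20.5% of all clusters rose and 20.5% fell. The difference between type IV and fibrillar collagens was not tested. *COL4A1* and *COL4A2* encode the chains found in nearly every basement membrane. *COL4A1* read 5.76, 5.96, 6.14 and 5.98 at NOL and 5.92, 5.92, 6.20 and 6.28 at LOL. *COL4A2* read 5.0, 4.96, 5.18 and 5.11 at NOL and 5.11, 5.21, 5.41 and 5.24 at LOL. Both groups overlapped in both genes. The log2 differences were 0.12 (95% confidence interval -0.12 to 0.36, limma adjusted p = 0.412) and 0.18 (-0.0009 to 0.36, limma adjusted p = 0.104), so changes beyond about 0.36 lie outside these intervals. *COL4A2* passed under quantile normalization, at 0.25.

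*COL4A5*, the X-linked chain that builds the α3α4α5 and α5α6 networks, read 4.73, 4.58, 4.75 and 4.78 at NOL and 4.29, 4.47, 4.57 and 4.34 at LOL. The groups did not overlap, though LOL 3 at 4.57 lay just under NOL 2 at 4.58. *COL4A5* was 1.23-fold lower (log2 difference -0.29, standard error 0.079, limma adjusted p = 0.0141). *COL4A3* and *COL4A4*, its partners in 1 of these networks, had log2 differences of -0.025 and -0.013. The 95% confidence intervals ran from -0.22 to 0.17 and from -0.22 to 0.20. Both means of *COL4A3*, 3.48 and 3.45, were under 4. *COL4A6*, the partner in the other network, read 3.0, 2.87, 2.76 and 2.72 at NOL and 2.92, 2.95, 3.11 and 3.02 at LOL. Its difference was 0.16 with both means under 4, and it passed only without NOL 1 (0.22). The 3 pairs of type IV genes lie next to each other in the RefSeq gene order of the ARS-UCD2.0 assembly, *COL4A1* with *COL4A2*, *COL4A3* with *COL4A4* and *COL4A5* with *COL4A6*. In humans each pair is transcribed in opposite directions from a shared promoter region. The first and second pair had like differences within the pair, none of which passed, and *COL4A5* and *COL4A6* had differences of opposite sign. Of other neighbours, *COL5A2* and *COL3A1* had 0.45 and 0.32, and *COL6A1* and *COL6A2* had 0.84 and 0.27.

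The FACITs went both ways. *COL21A1*, a small collagen known from blood vessel walls in humans, was the collagen cluster that fell furthest. It read 7.97, 7.83, 7.76 and 7.83 at NOL and 7.13, 7.21, 7.26 and 7.20 at LOL (transcript cluster 12802836). The highest LOL array lay far below the lowest NOL array, and *COL21A1* was 1.57-fold lower (log2 difference -0.65, standard error 0.065, limma adjusted p = 2.56e-05). Of all clusters, 7.28% had a more negative difference. *COL12A1*, which lies on type I fibrils, was as bright and overlapped between the groups. It read 7.44, 7.46, 7.65 and 7.64 at NOL and 7.67, 7.59, 7.49 and 7.57 at LOL. Its log2 difference was 0.033 (95% confidence interval -0.13 to 0.20, limma adjusted p = 0.755), and its sign turned under median centring.

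*COL22A1*, a FACIT of tissue junctions, read 4.06, 4.02, 4.06 and 3.97 at NOL and 4.26, 4.35, 4.46 and 4.29 at LOL and was 1.24-fold higher (log2 difference 0.31, standard error 0.064, limma adjusted p = 0.00292). *COL16A1* rose by 0.31 on the log2 scale (limma adjusted p = 0.0185) from a mean of 3.83. It did not pass without NOL 2 (0.25), LOL 1 (0.27) or LOL 4 (0.26), nor under median centring (0.24), quantile normalization (0.23) or cyclic loess normalization (0.22). *COL20A1* had a difference of 0.18 and passed only without LOL 2 (0.22) and under the filter on dim clusters. *COL9A3*, *COL14A1* and *COL19A1* had both means under 4, with differences of 0.080 to 0.15, and did not pass.

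The multiplexins *COL18A1* and *COL15A1* are collagen and proteoglycan at once and lie in basement membrane zones. The C-terminal end of the *COL18A1* product is released as endostatin, an inhibitor of blood vessel growth. *COL18A1* read 5.11, 5.28, 5.24 and 5.31 at NOL and 5.96, 5.77, 6.06 and 5.74 at LOL (transcript cluster 12679430). It was 1.57-fold higher (log2 difference 0.65, standard error 0.086, limma adjusted p = 1.81e-04) with no overlap of the groups. *COL15A1* read 4.68, 4.60, 4.62 and 4.65 at NOL and 5.0, 4.58, 4.72 and 4.63 at LOL. Only LOL 1 and LOL 3 exceeded all NOL arrays, and the difference of 0.095 did not pass (95% confidence interval -0.11 to 0.30, limma adjusted p = 0.438). The difference between the 2 multiplexins was not tested.

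Collagens of the membrane, of hexagonal lattices and of anchoring fibrils were mostly dim. *COL7A1*, the anchoring fibril collagen of epithelia, read 3.03, 3.07, 3.05 and 3.12 at NOL and 3.30, 3.30, 3.27 and 3.35 at LOL. Its difference of 0.24 passed (standard error 0.054, limma adjusted p = 0.00581), but not under quantile or cyclic loess normalization, at 0.12 and 0.10. *COL8A1*, a chain of type VIII, read 4.00, 3.70, 3.60 and 3.64 at NOL and 3.68, 3.45, 3.46 and 3.60 at LOL. Its difference of -0.19 did not pass (limma adjusted p = 0.155), and it passed only under cyclic loess normalization, at -0.30. *COL8A2*, the other chain of type VIII, read 2.22, 2.17, 2.42 and 2.38 at NOL and 2.47, 2.40, 2.54 and 2.40 at LOL, with overlapping groups. *COL8A2* and the cartilage lattice collagen *COL10A1* had differences of 0.16 and 0.15 and means from 2.19 to 2.45.

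None of the 4 transmembrane collagens passed. *COL23A1* read 4.75, 4.49, 4.50 and 4.17 at NOL and 4.77, 4.63, 4.56 and 4.28 at LOL, and *COL25A1* read 3.95, 3.81, 3.77 and 3.63 at NOL and 3.76, 4.09, 4.18 and 3.93 at LOL. The groups overlapped in both genes. *COL25A1* had a difference of 0.20 and passed only without LOL 1 (0.28). *COL13A1* and *COL17A1* had differences of 0.27 and 0.048, with both means under 4 and overlapping groups.

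Dim clusters as a whole were slightly higher at LOL. The median log2 difference of all clusters was 0.07 for a mean signal under 3, 0.16 for 3 to 4 and 0.09 for 4 to 5, and it was -0.074 for 5 to 6, -0.09 for 6 to 8 and -0.0025 for 8 and over. The collagen medians in the same ranges were 0.15, 0.21, 0.12, 0.41, 0.24 and 0.33. The dim collagens *COL2A1*, *COL5A3*, *COL6A3*, *COL6A6*, *COL7A1* and *COL16A1* thus rose in ranges where clusters in general were higher. So did *COL22A1* and the second cluster of *COL5A1*, in the range of 4 to 5. The brighter cluster of *COL5A1* and those of *COL5A2*, *COL6A1*, *COL6A2*, *COL18A1*, *COL3A1*, *COL1A1* and *COL1A2* rose in ranges where the median of all clusters was below 0.

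**Figure D3:**
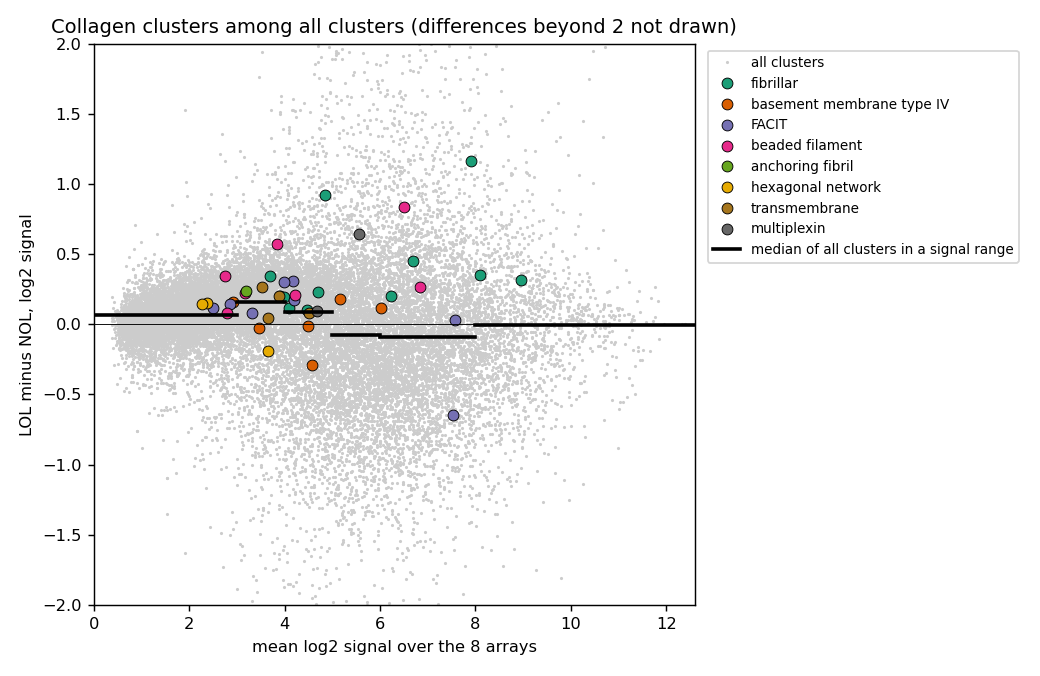
Log2 difference between LOL and NOL against the mean log2 signal over the 8 arrays, for all 24415 clusters (grey) and the 43 collagen clusters (coloured by class). Black lines mark the median of all clusters in 6 ranges of signal. The line lies above 0 under a signal of 5 and below 0 from there on, while most bright collagen clusters lie above it.

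Chains of 1 collagen type are made as separate proteins before they assemble, so the ratio of 2 chains on the same array was compared between the groups. Such a ratio shows unequal change and not the amounts of the chains. 10 pairs had a cluster for both chains. With 4 samples a group, the smallest two-sided p of the exact permutation test is 0.0286. The groups did not overlap in 4 pairs, each at p = 0.0286 by the exact permutation test, and none passed after adjustment over the 10 pairs (0.0715). After that adjustment a pair can pass only if most of the 10 pairs are at the smallest p, however large its own change. The lack of a pass therefore does not show that the ratios were unchanged. The log2 ratio of *COL5A1* to *COL5A2* was 0.87 ± 0.082 at NOL and 1.59 ± 0.11 at LOL (SD, n = 4 each), which is 1.64-fold higher. *COL5A1* to *COL5A3*, of which the second was under 4 at NOL, had a log2 change of 0.96. Both ratios used the brighter cluster of *COL5A1*, and its other cluster rose less, by 0.93 against 1.17 on the log2 scale. *COL6A1* to *COL6A2* went up 1.48-fold, from -0.62 ± 0.16 to -0.057 ± 0.074 (SD, n = 4). *COL4A5* to *COL4A6* went down, from 1.87 ± 0.18 to 1.42 ± 0.090 (SD, n = 4), a log2 change of -0.46 that includes a chain under 4. Pairs that share a chain are not independent of each other.

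In the other 6 pairs the groups overlapped. *COL6A1* to *COL6A3* had a log2 change of 0.27 (p = 0.0571, exact permutation test, 0.114 adjusted), and *COL8A1* to *COL8A2* had one of -0.34 (p = 0.0857, exact permutation test, 0.143 adjusted). The ratio of the 2 chains of type I changed by -0.15, that of *COL4A1* to *COL4A2* by -0.060, and those of *COL4A3* to *COL4A4* and of *COL11A1* to *COL11A2* by -0.013 each. The ratio of *COL4A3* to *COL4A4* was the steadiest, with an SD of 0.018 at NOL and of 0.060 at LOL (n = 4 each). It includes *COL4A3*, whose means were under 4 in both groups.

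**Figure D4:**
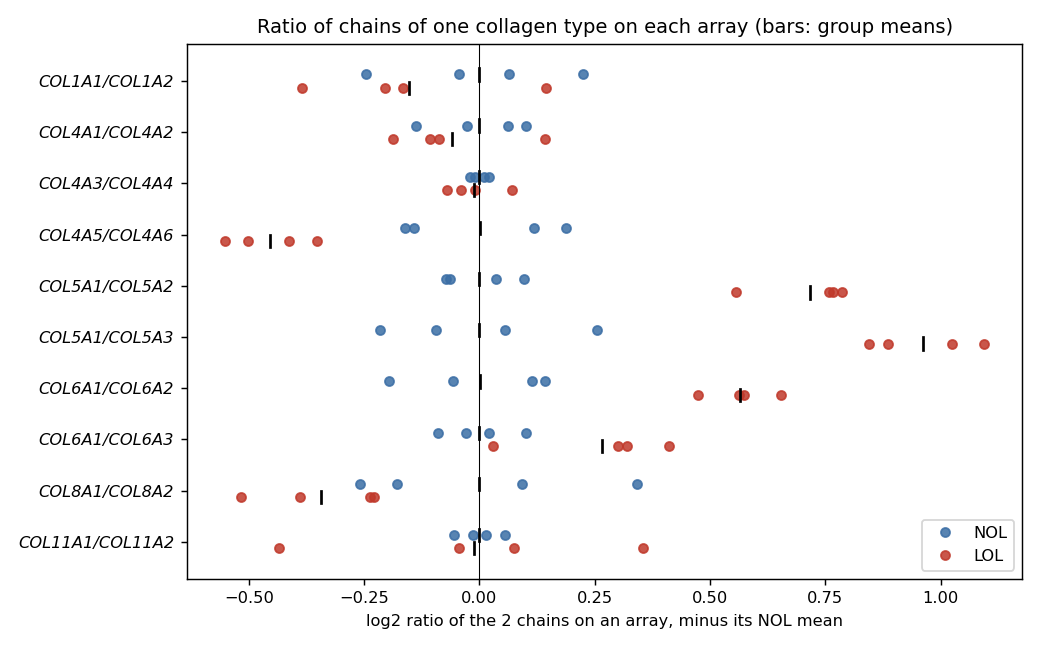
Log2 ratio of 2 chains of 1 collagen type on each array, minus the mean ratio of the NOL arrays (NOL blue, LOL red, black bars for group means), for 10 pairs of chains. The groups are apart in *COL5A1*/*COL5A2*, *COL5A1*/*COL5A3*, *COL6A1*/*COL6A2* and *COL4A5*/*COL4A6* and overlap in the other 6 pairs.

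Genes that act on collagen went in different directions. Their counts stand beside 20.5% higher and 20.5% lower over all clusters, and 26.2% and 35.1% over clusters with both means at or over 4. Collagen chains are hydroxylated, glycosylated and folded in the endoplasmic reticulum, carried out in large vesicles, trimmed outside the cell and then cross-linked. Of 17 genes of folding and modification, all with both means at or over 4, 7 rose and 5 fell, and 61.3% of all clusters in that signal range passed in either direction. *P4HA3*, a prolyl 4-hydroxylase subunit, rose by 0.87 on the log2 scale, and the lysyl hydroxylase *PLOD1* rose by 0.65 (limma adjusted p = 8.2e-05 and 2.0e-05). The collagen chaperone *SERPINH1* fell by 0.58 (limma adjusted p = 3.1e-05). *FKBP14*, a peptidyl-prolyl isomerase of the endoplasmic reticulum that acts on collagen, was 3.60-fold lower (log2 difference -1.85, limma adjusted p = 1.25e-07), with means of 8.09 and 6.25.

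Of 14 genes of secretion and propeptide cleavage, 12 of them with both means at or over 4, 8 fell and 1 rose. *MIA3* and *MIA2*, which load bulky collagen into vesicles, were 1.67-fold and 2.38-fold lower, and the coat proteins *SEC23A* and *SEC24D* were 1.68-fold and 1.63-fold lower (limma adjusted p from 2.5e-07 to 1.2e-05). The gene that rose was *BMP1*, which removes the C-terminal propeptide, with a log2 difference of 0.24 (limma adjusted p = 0.00813). All 5 lysyl oxidases, the cross-linking enzymes, were higher, *LOX* by 0.76 on the log2 scale (limma adjusted p = 0.00179) and *LOXL2* by 3.61 (limma adjusted p = 1.04e-08).

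Of 9 proteoglycans of the matrix, most of them small ones that bind fibrils, 6 were higher and 1 was lower. *FMOD* and *DCN* were 1.94-fold and 1.84-fold higher (limma adjusted p = 2.3e-06 and 2.7e-05), *ASPN* rose by 1.08 on the log2 scale with both means under 4, and *VCAN*, which encodes the large proteoglycan versican, fell by 0.16. Of the collagen receptors, 2 of 10 fell and none rose, and the share that fell is near that of all clusters. *ITGA2*, the α2 integrin chain, and *DDR1*, a receptor tyrosine kinase, were 1.66-fold and 1.63-fold lower (limma adjusted p = 7.6e-05 and 1.3e-05). The common β1 chain *ITGB1* had a difference of 0.03 and did not pass. Of 14 partners of type IV collagen in the basement membrane, 3 were higher and 2 lower, no more than the 41.0% of all clusters that passed in either direction. *LAMA1* and *LAMC1*, 2 chains of laminin, were 1.65-fold and 1.44-fold lower (limma adjusted p = 8.5e-06 and 5.4e-05), and *LAMA5* was 1.30-fold higher (limma adjusted p = 0.0109). The nidogen *NID2* and the proteoglycan *HSPG2* did not pass.

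**Figure D5:**
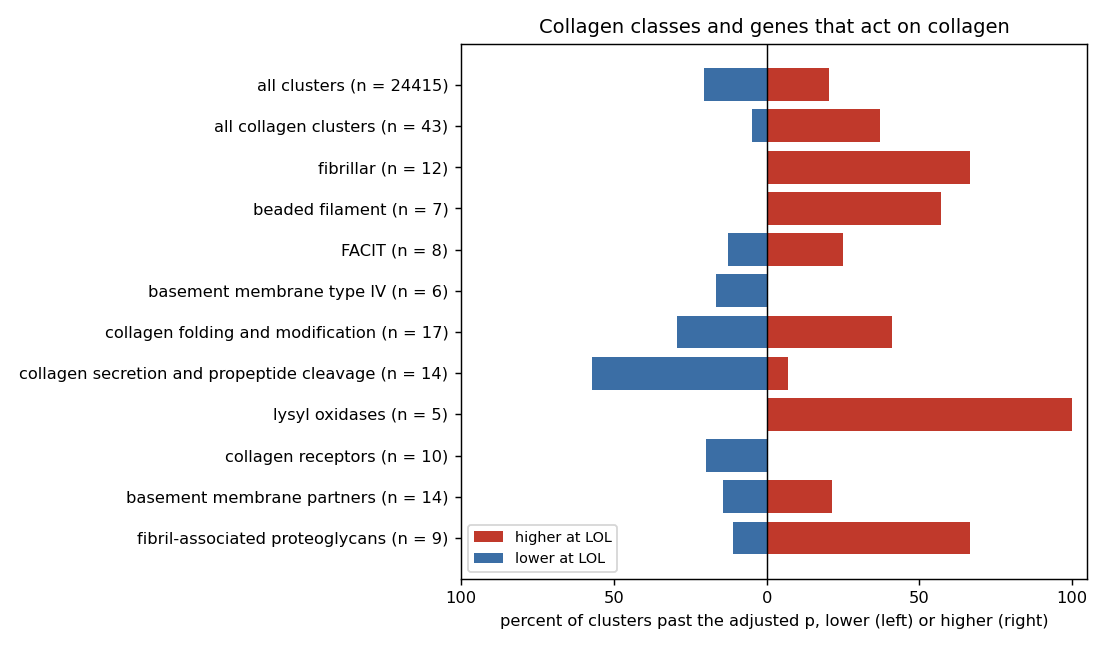
Percent of clusters that rose (red, right) or fell (blue, left) at the adjusted p among all clusters, all collagen clusters, 4 collagen classes and 6 lists of genes that act on collagen, with the number measured beside each name. Bars for fibrillar and beaded filament collagens, lysyl oxidases and proteoglycans point wholly or mainly right, and that for secretion and propeptide cleavage mainly left. Type IV collagen and collagen receptors have bars on the left only.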

How the data were processed

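RNA of 4 NOL and 4 LOL samples was hybridised to the Bovine Gene 1.0 ST array of Affymetrix, in 1 colour. The deposited values are log2 signals that the authors computed with RMA (robust multichip average), which removes background, normalizes between arrays and summarises probes to transcript clusters. They were used without further normalization. The values ran from 0.08 to 12.42, and every column belonged to a sample. Arrays have no counting depth, and the number of arrays and the unknown background limit the precision. Gene names came from the array annotation, with exactly 1 symbol for 18457 clusters, several for 688 and none for 5270, and only the first kind was named. Genes with several clusters were read from the brighter one.

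All clusters were compared with limma 3.58.1 in R 4.3.3 (2 groups, moderated variances, two-sided), with Benjamini-Hochberg adjustment over all clusters. A cluster passed at an adjusted p under 0.05, and differences are LOL minus NOL. The fold threshold of 2 is that of the study's methods. The fit was tested on simulated data. Chain ratios were compared by exact permutation with scipy 1.17.1. Members and lists were chosen with earlier results of these data known. Values on every array are given for members past both thresholds, for the largest change past the adjusted p and the 2 brightest clusters of each class, and for chains with the most changed ratios. Pathway and marker genes other than the 2 largest past both thresholds in a list were named after their values were seen. Alternatives were analysis of variance without moderation, median centring, quantile and cyclic loess normalization, a filter on clusters under 4 in both groups, a replicate block, array weights, treat, the mean of clusters and leaving out each array. Cyclic loess was added after the values were seen.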

Additional observations from a re-analysis of the deposited data

Results flagged for a closer look

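In 4 of 86 groups of 4 arrays of a collagen cluster, 1 array lay apart from the other 3, with a gap to the nearest that exceeded Dixon's 95% limit as a share of the group's range. Chance alone flags about 1 in 20 such groups. *COL5A1* (cluster 12707220) was 8.59 in LOL 4 and 8.46 to 8.47 in the other LOL arrays, a narrow group in which the gap is small in size. *COL6A3* was 4.37 in LOL 4 and 4.03 to 4.08 in the other LOL arrays. *COL6A5* was 3.0 in LOL 1 and 2.74 to 2.78 in the others, and *COL10A1* was 2.09 in NOL 2 and 2.22 to 2.23 in the other NOL arrays. Both of these genes had means under 4 in both groups. Of the chain ratios, *COL5A1* to *COL5A2* was 1.43 in LOL 1 and 1.63 to 1.66 in the other LOL arrays.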

How the results depend on the processing

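Of the 18 collagen clusters past the adjusted p, 11 higher and 2 lower ones passed under every alternative that gave them a value, and 5 did not (*COL1A1*, *COL1A2*, *COL5A3*, *COL16A1* and *COL7A1*). None of the 18 changed direction. Over the alternatives 12 to 17 collagen clusters were higher and 2 to 3 lower, and leaving out 1 array gave 13 to 16 and 2. With treat no collagen cluster was called higher (0), against 277 higher and 213 lower of all clusters, since treat asks for a fold over 2 beyond the error. Directions turned in 8 clusters that had not passed. Under quantile and cyclic loess normalization these were *COL14A1* (-0.029 and -0.052), *COL6A5* (-0.0145 and -0.041) and *COL17A1* (-0.0495 and -0.067), and under median centring *COL12A1* (-0.0325) and *COL17A1* (-0.0175). The ratio of *COL11A1* to *COL11A2* turned to 0.036 and 0.031 under the first 2 of these. It ranged from -0.135 to 0.13 with 1 array left out, and the ratio of *COL4A3* to *COL4A4* from -0.04 to 0.0067. With 1 array left out, *COL11A2* ranged from -0.0008 to 0.23, *COL4A3* from -0.10 to 0.0125, *COL4A4* from -0.0875 to 0.049, *COL12A1* from -0.0033 to 0.067, *COL6A5* from -0.0167 to 0.17 and *COL23A1* from -0.02 to 0.18. The cause was not tested.

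Same-numbered samples did not deviate together (r from -0.027 to 0.11 across clusters), so the numbers were not taken as pairs. With the replicate block, 15 collagen clusters were higher and 2 lower, with *COL1A1* (adjusted p = 0.0764, limma), *COL1A2* (0.056) and *COL5A3* (0.0573) lost and *COL27A1* (0.0487) and *COL26A1* (0.0327) gained. The chain ratios could not pass in a paired permutation, whose smallest p is 0.125, or with 1 array left out, where it is 0.0571. Under quantile and cyclic loess normalization 0 of 10 passed, where again most pairs would have to reach the smallest p for any to pass.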
